A study of Mus musculus with 214 samples.

Results

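The 38 genes described here encode proteins of nucleotide excision repair, mismatch repair, homologous recombination and the Fanconi anemia pathway, non-homologous end joining, and the kinases that signal DNA damage. They were taken by symbol, and the list was chosen with earlier results of these data known. It holds 12 genes for nucleotide excision, 4 for mismatch repair, 12 for recombination and the Fanconi pathway, 4 for end joining and 6 for damage signalling. All 38 were found among the 18647 genes measured in WT livers and among the 19540 measured in Mgmt-/- livers, H2afx under its newer symbol. For 32 of them the mean reached 5 normalized counts in at least 1 comparison of NDMA with saline, and 12 reached it in all 10. Rad51c, Palb2, Bard1, Fanca, Fancd2 and Fanci reached it in none and were not tested.

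Liver RNA of male and female mice was profiled as 3′ digital gene expression libraries, which count the 3′ ends of transcripts, after neonatal treatment with the alkylating carcinogen N-nitrosodimethylamine (NDMA). Pups received saline, or NDMA at 3.5 mg/kg on postnatal day 8 and 7 mg/kg on postnatal day 15, and livers were taken at 5 times counted from the second injection, 1, 2 and 5 days, 10 weeks and 10 months. All mice, controls included, were C57BL/6 and RaDR+/+; GPT+/+, that is, they carried the RaDR reporter of recombination and the gpt transgene for mutation assays, and the mice called Mgmt-/- lacked in addition O6-methylguanine DNA methyltransferase, which removes methyl groups from the O6 position of guanine. In the order of the times, 21, 8, 7, 8 and 10 saline and 26, 8, 8, 8 and 13 NDMA livers of WT mice had values, and 12, 7, 8, 8 and 12 saline and 12, 8, 8, 8 and 13 NDMA livers of Mgmt-/- mice. A liver sample holds hepatocytes, blood cells and other cell types together, so that fewer cells of a type and less RNA per cell cannot be told apart. Depth was between 150038 and 4791649 reads per WT library and between 713584 and 7740710 per Mgmt-/- library, and many of these genes were counted by only a few reads in a liver. Values are normalized counts, that is, reads divided by 1 size factor per library, and each genotype was scaled by itself, so repair gene levels were compared within a genotype only. The Mgmt transcript was set side by side as a check of the labels, on these separate scales. Over all libraries its median was 45.8 normalized counts in WT mice (n = 117) and 1.09 in Mgmt-/- mice (n = 96), and the highest Mgmt-/- library (9.67) was below every WT library.

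Some libraries stood apart. Of the 8 Mgmt-/- saline libraries at 5 days, D389011 and D389017 averaged 4432 and 4983 normalized counts over 5 kidney genes and only 469.9 and 319.1 over 5 liver genes, and their results are given without and with these 2. The largest mean of the kidney genes in any other library was 4.30. The WT NDMA libraries D209072 and D209077 at 1 day had sex-linked transcripts that went against their sex labels. They held Mgmt at 28.0 and 32.6 normalized counts, beside medians of 67.1 in the NDMA and 37.4 in the saline group, and were kept in the fits. The WT NDMA libraries D215006, D215014, D215022 and D215030, 1 at each time after day 1, held fewer than 300000 reads. The WT saline libraries D209074 (1 day), D215004 (2 days) and D215012 (5 days) held Mgmt at 128.5, 85.0 and 77.1 normalized counts. Medians of Mgmt at these times were 37.4, 31.7 and 28.1 in saline and 67.1, 81.0 and 70.0 in NDMA livers. These saline libraries were kept as labelled, and whether their treatment labels hold was not tested.

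As background, small alkylating agents such as NDMA leave methylated bases. O6-methylguanine that is not repaired directly mispairs with thymine at replication, mismatch repair acts on that mispair, and repeated processing can stall replication forks and break strands. Homologous recombination and the Fanconi proteins restore broken or stalled forks, end joining seals breaks without a template, nucleotide excision removes helix-distorting lesions, and ATM, ATR and the checkpoint kinases report damage to the cell cycle machinery. Many of these proteins are regulated after translation, which transcript counts do not show.

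The question asked of each genotype and time was which of these transcripts differed between NDMA and saline livers. A gene was called where the adjusted p (limma, Benjamini-Hochberg over all genes tested) was under 0.05 and the log2 fold change exceeded 0.58 in size. Of the 38 genes, 11 were called in at least 1 comparison, and 5 of these in 2 or more. There were 17 calls over the 10 comparisons, 12 higher and 5 lower with NDMA, of which 1 was in WT and 16 in Mgmt-/- livers. In 16 of the 17 calls the 2 groups overlapped. The share of overlap among all called genes is not given here, so this count has nothing to be set against. The heat map of fold changes shows the calls by pathway.

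**Figure D1:**
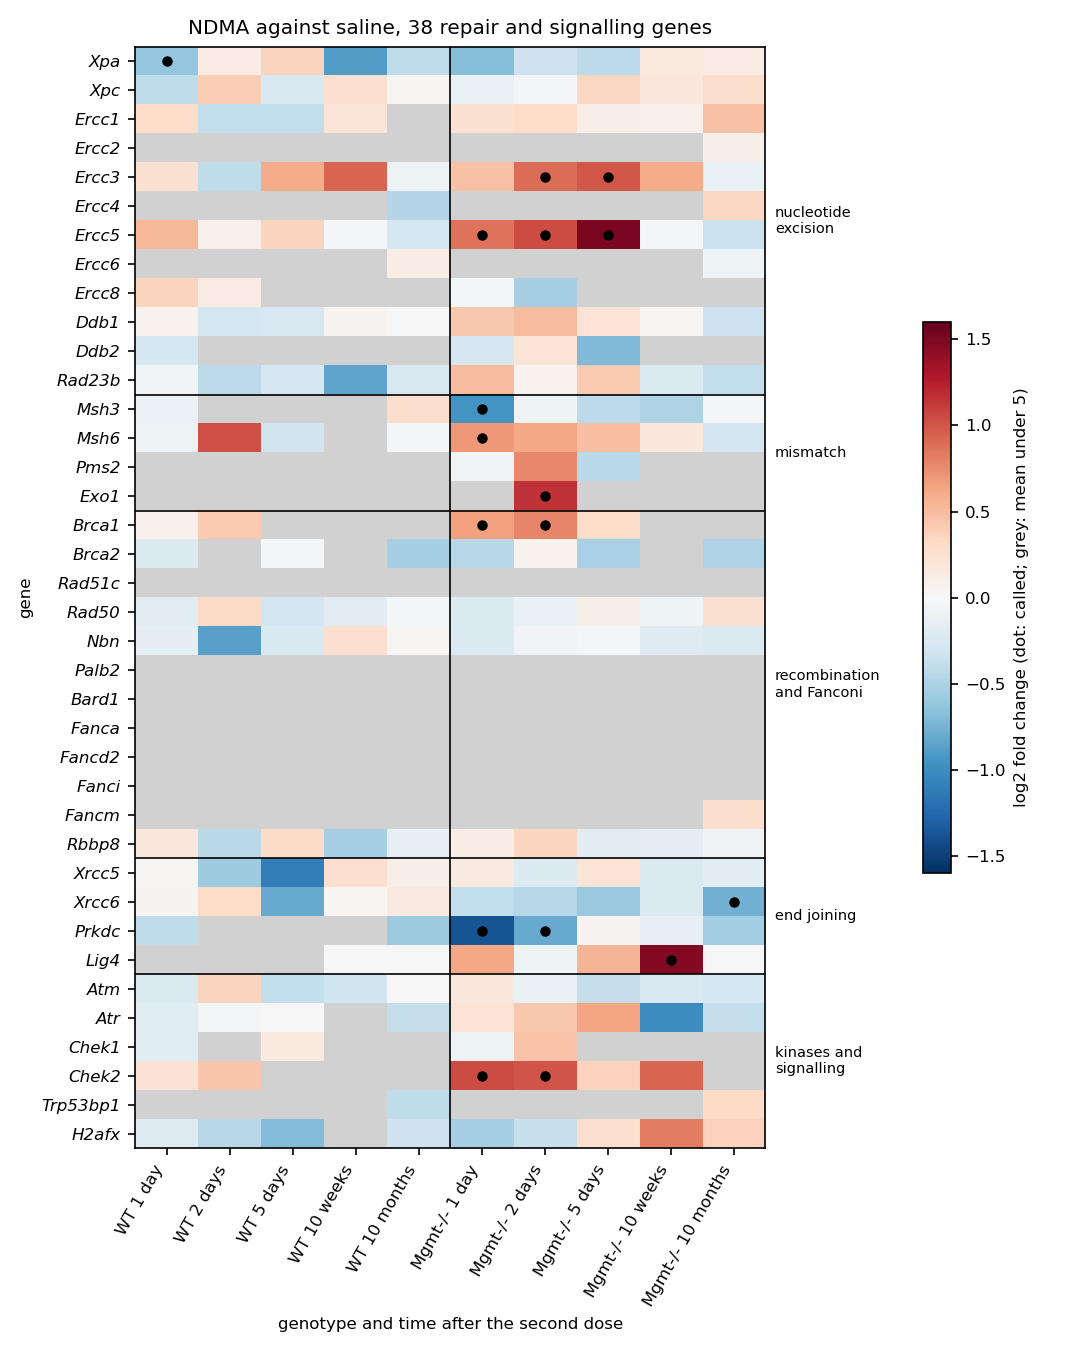
Log2 fold changes of NDMA against saline (color scale) for the 38 genes (rows, by pathway) in the 10 comparisons of genotype and time (columns). Dots mark the 17 calls and grey cells comparisons in which the mean was under 5 normalized counts; 12 of the 17 dots lie in the columns of Mgmt-/- mice at 1 and 2 days.

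The share of these genes that was called was set beside the share of all genes. In WT mice at 1 day 1 of 24 tested members was called (4.17%), against 9.19% of 9028 genes. At 2 days 0 of 19 was called against 6.23% of all genes, at 5 days 0 of 18 against 3.61%, at 10 weeks 0 of 14 against 0.0249%, and at 10 months 0 of 22 against 0%. For these 4 times limma gave 2, 2, 1 and 0 members with an unadjusted p under 0.05, edgeR called 1, 1, 0 and 0, and DESeq2 0, 1, 0 and 0. In Mgmt-/- mice 6 of 26 members (23.1%) were called at 1 day against 17.7% of 10055 genes, and 6 of 27 (22.2%) at 2 days against 19.9% of 9469. At 5 days 2 of 24 (8.33%) were called against 17.8% of all genes, or 2 of 25 against 10.3% with the 2 kidney-transcript libraries kept. At 10 weeks 1 of 20 (5.00%) stood against 11.2%, and at 10 months 1 of 25 against 7.74%. The median log2 fold change of the members lay between -0.25 and 0.16 over the 10 comparisons, that of all genes between -0.08 and 0.04. The share was above that of all genes at 1 and 2 days in Mgmt-/- mice and below it in the other comparisons that had calls. Each of the 2 higher shares rests on only 6 calls, and the members were not tested as a group.

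**Figure D2:**
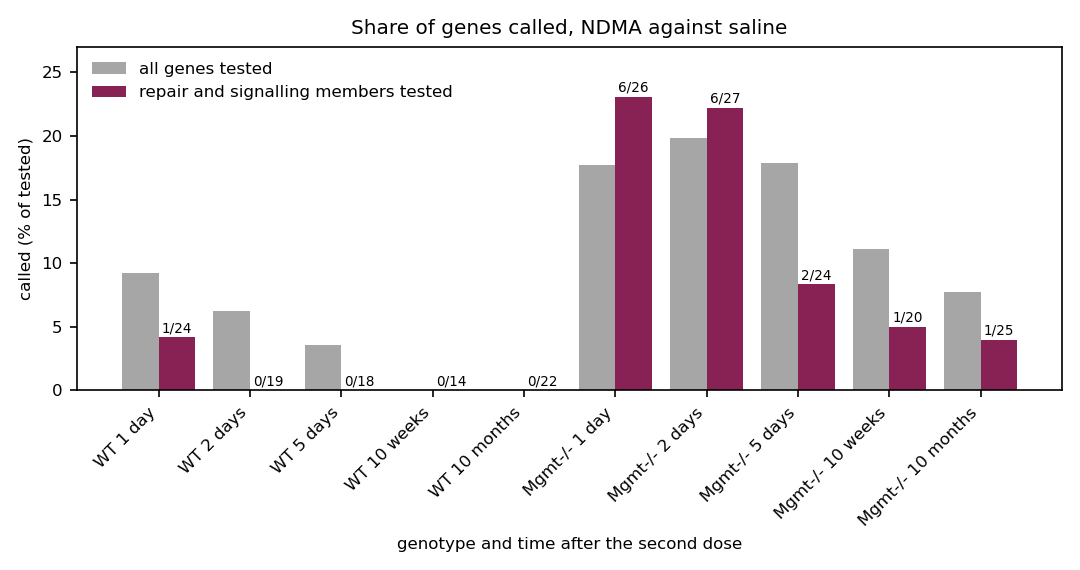
Percent of tested genes called in each comparison of NDMA with saline, for all genes (grey bars) and for the 38 repair and signalling genes (purple bars, with called/tested above). The purple bars exceed the grey ones only in Mgmt-/- mice at 1 day (23.1% against 17.7%) and 2 days (22.2% against 19.9%). These shares rest on few calls, and the members were not tested as a group.

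Nucleotide excision repair gave the most repeated change, in Ercc5 (chr1:44147744-44181260, plus strand, GRCm38), which encodes XPG, the endonuclease that cuts 3′ of the lesion. In Mgmt-/- livers at 5 days Ercc5 was at 1.02, 6.69 and 16.0 normalized counts in saline (lowest, median and highest, n = 6) and at 10.7, 17.2 and 28.7 with NDMA (n = 8). Each of the 8 NDMA livers exceeded the saline median, and 6 lay higher than any saline liver. This was a log2 fold change of 1.51 ± 0.38 (SE), a 2.85-fold increase (adjusted p = 0.00539). With the 2 kidney-transcript libraries kept it was 1.29 (adjusted p = 0.0390). At 2 days Ercc5 was at 11.8 ± 5.25 (SD, n = 7) in saline and 23.9 ± 5.82 (SD, n = 8) in NDMA livers (log2 1.04 ± 0.26, adjusted p = 0.00329), and at 1 day at 19.2 ± 8.30 and 34.5 ± 11.0 (SD, n = 12 each; log2 0.87 ± 0.21, adjusted p = 0.00162). Within the 2 library batches at 1 day the log2 differences were 0.97 and 0.67. At 10 weeks and 10 months the log2 fold changes were -0.03 and -0.34, neither called. In WT livers at 1 day Ercc5 was at 12.8 ± 5.94 (SD, n = 21) in saline and 19.0 ± 9.37 (SD, n = 26) with NDMA, a log2 change of 0.53 ± 0.19 whose adjusted p of 0.0340 passed while its size missed the fold change threshold; edgeR and DESeq2 put it at 0.62 and called it.

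Ercc3, the XPB helicase of the transcription factor TFIIH, which opens DNA around a lesion, rose at 2 and 5 days in Mgmt-/- livers. At 5 days it was at 17.9, 25.1 and 36.8 normalized counts in saline (n = 6) and at 36.5, 51.6 and 64.9 with NDMA (n = 8), and 7 of 8 NDMA livers were above every saline liver. Its log2 fold change was 0.99 ± 0.18 (adjusted p = 0.000241), and 1.00 with the 2 kidney-transcript libraries (adjusted p = 0.000523). At 2 days the saline livers lay at 14.6, 19.1 and 28.3 (n = 7) and the NDMA livers at 29.9, 38.2 and 48.2 (n = 8), the only call in which the groups did not overlap (log2 0.89 ± 0.18, adjusted p = 0.000404). Its log2 fold change at 1 day was 0.46 and was not called (adjusted p = 0.0578), but it was called with equal library totals (0.66, adjusted p = 0.00871) and in the library batch 191212Eng fitted alone (0.67, adjusted p = 0.0200). At 10 weeks it was 0.59 ± 0.22, not called by limma (adjusted p = 0.0917) but called by DESeq2 (0.63, adjusted p = 0.0487) and with equal library totals (0.79, adjusted p = 0.0297). In WT livers it was 0.59 ± 0.27 at 5 days (adjusted p = 0.242) and 0.93 ± 0.29 at 10 weeks, where all 8 NDMA livers exceeded the saline median and the adjusted p was 0.910 (unadjusted 0.00414). The other WT values lay between -0.41 and 0.25.

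Xpa (chr4:46155347-46196311, minus strand), which verifies the damaged strand and recruits the nucleases, was the only member called in WT mice. At 1 day it was at 3.11, 11.0 and 31.2 normalized counts in saline (n = 21) and at 1.77, 8.93 and 18.6 with NDMA (n = 26), so the ranges overlapped widely. Of the NDMA livers 19 lay below the saline median. It fell by 0.62 on the log2 scale (SE 0.20, adjusted p = 0.0198), with -0.94, -0.37 and -0.45 within the 3 library batches, and the call was lost with a pseudocount of 5, with equal library totals and without sex and batch terms. In Mgmt-/- livers at 1 day the log2 fold change was -0.68, not called (adjusted p = 0.104). The last 2000 bases of Xpa overlap Ncbp1 on the other strand, and whether counting used strand is not given in the sources used here.

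The damage sensors of this pathway were not called by limma as fitted here. Xpc, which finds distorted helices across the genome, had log2 fold changes between -0.41 and 0.39 over the 10 comparisons. Ddb1 is the adaptor of the ultraviolet damage-binding ubiquitin ligase. In Mgmt-/- livers its adjusted p passed at 1 day and 2 days with log2 fold changes of 0.43 ± 0.14 (adjusted p = 0.0178) and 0.51 ± 0.11 (adjusted p = 0.00115), below the fold change threshold. Its partner Ddb2, a p53 target in human cells, was near the detection limit with group means between 1.19 and 6.93, and was tested in 4 comparisons with values between -0.71 and 0.22. Rad23b, the partner of XPC, was at 0.50 ± 0.17 in Mgmt-/- livers at 1 day (adjusted p = 0.0250), also short of the threshold. With equal library totals, which raised the median of all genes, Ddb1 was called at 1 day (0.63, adjusted p = 0.00152) and 2 days (0.68, adjusted p = 4.58e-05) and Rad23b at 1 day (0.70, adjusted p = 0.00588). Ercc1, a subunit of the nuclease that cuts 5′ of the lesion, ranged from -0.40 to 0.47, and Ercc2, Ercc4, Ercc6 and Ercc8 were tested in 1, 2, 2 and 4 comparisons with no call.

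Of the mismatch repair genes tested 1 day after treatment of Mgmt-/- mice, Msh3 was called lower and Msh6 higher. Pms2 was not called there (log2 -0.05). Msh3 and Msh6 encode the alternative partners that direct mismatch recognition to larger loops or to single mispairs. Msh3 (chr13:92211872-92355003, minus strand) was at 6.31, 13.5 and 19.3 normalized counts in saline and at 2.30, 5.93 and 17.1 with NDMA (n = 12 each), with 6 NDMA livers below the lowest saline liver. It fell by 0.96 on the log2 scale (SE 0.25, adjusted p = 0.00432), and the differences within the 2 batches were -0.96 and -0.95. Msh6 (chr17:87975062-87990892, plus strand) was at 4.93, 12.4 and 22.7 in saline and at 7.37, 19.2 and 33.1 with NDMA (n = 12 each), and 11 of 12 NDMA livers exceeded the saline median. It rose by 0.69 ± 0.25 (adjusted p = 0.0350), with 0.64 and 0.80 within batches. The Msh6 call was lost in 7 of 10 alternatives, with edgeR (adjusted p = 0.0726) and DESeq2 (0.0561) among them, whereas Msh3 was called in all 10. The 10 include the same fit without a fold change threshold, which could not lose a call. The Msh6 3′ end overlaps Fbxo11 on the other strand.

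Exo1 (chr1:175880581-175913489, plus strand), the exonuclease that removes the mismatched strand and also resects breaks, reached the mean of 5 in a single comparison, Mgmt-/- at 2 days. There it was at 0.710, 4.30 and 11.7 normalized counts in saline (n = 7) and at 5.75, 10.5 and 20.0 with NDMA (n = 8), counted by medians of 5 and 13 reads. The 8 NDMA livers all exceeded the saline median, and 2 exceeded every saline liver. Exo1 rose by 1.15 ± 0.36 on the log2 scale (adjusted p = 0.0173). Without the NDMA library D389071, which held the highest value, the adjusted p was 0.0524. At 1 day in Mgmt-/- livers, below that mean, Exo1 was at 0, 2.14 and 11.2 in saline and at 2.76, 5.32 and 8.27 with NDMA (n = 12 each), and without the filter on low values it was called (log2 0.89, adjusted p = 0.0326). Pms2, the endonuclease subunit of the mismatch repair complex, was tested in 3 comparisons, with log2 fold changes between -0.43 and 0.76 and no call by limma; DESeq2 called it at 2 days in Mgmt-/- livers (1.04, adjusted p = 0.0443).

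Among the recombination and Fanconi genes, Brca1 (chr11:101488764-101551955, minus strand), which promotes resection and loads the recombinase, was the only one called. In Mgmt-/- livers at 2 days it was at 4.26, 6.99 and 11.0 normalized counts in saline (n = 7) and at 6.33, 13.6 and 17.8 with NDMA (n = 8), and 7 of 8 NDMA livers were above every saline liver. It rose by 0.78 ± 0.26 on the log2 scale (adjusted p = 0.0288). Leaving out single libraries removed this call in 7 of 15 cases, with adjusted p up to 0.0619: the saline libraries D389006, D389023 and D389047 and the NDMA libraries D389071, D389077, D389083 and D389095. At 1 day it was at 7.27 ± 2.87 in saline and 11.9 ± 3.43 with NDMA (SD, n = 12 each), a log2 change of 0.65 ± 0.22 (adjusted p = 0.0267), with 0.73 and 0.51 within batches. That call was lost in the larger batch alone (adjusted p = 0.0647) and without the library whose reads were not recovered (0.0504). With a pseudocount of 5 the calls at 1 and 2 days were lost because the log2 changes, 0.46 and 0.56, missed the threshold. In WT livers Brca1 was at a log2 change of 0.06 at 1 day and 0.42 at 2 days, neither called. At 2 days 6 of 8 WT NDMA livers exceeded the saline median. The genotype by treatment term of Brca1 at 2 days was 0.16 (edgeR, adjusted p = 0.938).

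The other members of this pathway were not called by limma as fitted here. Rad50 and Nbn, subunits of the complex that senses and trims break ends, were tested in all 10 comparisons, with log2 fold changes between -0.31 and 0.31 for Rad50 and between -0.86 and 0.25 for Nbn. The lowest Nbn value was that of WT mice at 2 days, where saline livers were at 16.6 ± 5.76 and NDMA livers at 8.60 ± 2.72 (SD, n = 8 each). Its adjusted p was 0.0532, and without D215006, the library of 150038 reads, it was 0.0138 (log2 -0.94). Nbn was also called there by edgeR (log2 -1.17, adjusted p = 0.0266) and by limma with a pseudocount of 5 (log2 -0.65, adjusted p = 0.0447). Leaving out this library also brought a Msh6 call, at a log2 fold change of 1.34 (adjusted p = 0.0284) in place of 1.03 (adjusted p = 0.220). Rbbp8, the resection factor CtIP, stayed between -0.53 and 0.34. Brca2, which loads the recombinase onto single strands, stayed between -0.53 and 0.06. Fancm, a DNA translocase, was tested once (0.29). The 6 untested members together summed to 12.6 ± 4.87 normalized counts (SD, n = 21) in WT saline livers at 1 day, and the highest group mean of their sum was 20.6 ± 6.24 (SD, n = 8), in Mgmt-/- NDMA livers at 2 days beside 14.8 ± 6.57 (SD, n = 7) in their saline controls. These sums were not tested.

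End joining differed gene by gene. Prkdc (chr16:15637866-15842235, plus strand), the catalytic subunit of the DNA-dependent protein kinase, fell in Mgmt-/- livers at 1 and 2 days. At 1 day it was at 4.59, 8.42 and 39.6 normalized counts in saline and at 0, 3.63 and 13.8 with NDMA (n = 12 each), and 3 NDMA libraries held no read of it. It fell by 1.38 on the log2 scale (SE 0.43, adjusted p = 0.0159), and by 1.39 and 1.37 within the 2 batches. At 2 days saline livers were at 11.4 ± 2.59 (SD, n = 7) and NDMA livers at 6.16 ± 1.69 (SD, n = 8), and 7 of 8 NDMA livers were below every saline liver. It fell by 0.81 on the log2 scale (SE 0.26, adjusted p = 0.0198). Without the saline library D389029 the adjusted p was 0.0516, and the call was also lost with a pseudocount of 5 and with equal library totals. At 5 days, 10 weeks and 10 months the log2 fold changes of Prkdc in Mgmt-/- livers were 0.04, -0.14 and -0.56, none called. In WT livers Prkdc was tested at 1 day and 10 months, with log2 fold changes of -0.40 and -0.57 and no call.

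Xrcc6 (chr15:81987835-82040085, plus strand), which encodes Ku70 of the break-binding ring, was called 10 months after treatment. In Mgmt-/- livers it was at 29.3, 40.7 and 57.9 normalized counts in saline (n = 12) and at 16.7, 22.8 and 36.7 with NDMA (n = 13), counted by medians of 30 and 20 reads. All 13 NDMA livers were below the saline median and 11 below the lowest saline liver. The change, -0.77 ± 0.15 on the log2 scale (adjusted p = 0.000853), kept its call in all 9 alternatives, with values between -0.78 and -0.68. The 9 include the same fit without a fold change threshold, which could not lose a call. Earlier log2 fold changes in Mgmt-/- livers were -0.39, -0.46, -0.60 and -0.23 at 1, 2 and 5 days and 10 weeks, not called. At 5 days, where the adjusted p was 0.0523, the change was called by DESeq2 (adjusted p = 0.0389) and by limma with a mean of at least 20 (0.0467) or with treatment alone (0.0499). Its partner Xrcc5, which encodes Ku80, was at -0.16 at 10 months. In WT livers at 5 days both were lower without a call by limma, Xrcc6 at -0.81 (adjusted p = 0.116) and Xrcc5 at -1.11 (adjusted p = 0.287), and without D215014, a library of 202626 reads, Xrcc6 was called at -0.99 (adjusted p = 0.0109), as it was by edgeR (adjusted p = 0.0186) and DESeq2 (0.0107).

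Lig4 (chr8:9969049-9977686, minus strand), the ligase of end joining, was called at 10 weeks in Mgmt-/- livers. It was at 0, 4.11 and 9.39 normalized counts in saline and at 5.28, 10.7 and 15.3 with NDMA (n = 8 each), counted by medians of 3 and 11.5 reads. The log2 fold change of 1.47 ± 0.48 had an adjusted p of 0.0499, next to the threshold, and leaving out 1 library at a time removed the call in 12 of 16 cases, the saline libraries D209003, D209004, D209026, D209027 and D209028 and the NDMA libraries D209006, D209007, D209008, D209029, D209030, D209031 and D209032. Without them the adjusted p reached up to 0.105. At 1 day Lig4 was at 6.33 ± 2.55 (SD) in saline and 10.2 ± 4.03 with NDMA (n = 12 each), and all 12 NDMA livers exceeded the saline median. That log2 fold change of 0.62 ± 0.24 was not called (adjusted p = 0.0559), but it was with equal library totals (0.79, adjusted p = 0.0163). At 2 days, 5 days and 10 months in Mgmt-/- livers the values were -0.07, 0.54 and 0.01, and in WT livers at 10 weeks and 10 months 0.01 each, none called.

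Of the signalling genes, Chek2 (chr5:110839979-110874145, plus strand), the checkpoint kinase downstream of ATM, rose at 1 and 2 days in Mgmt-/- livers. At 1 day it was at 0, 5.43 and 9.97 normalized counts in saline and at 4.71, 9.86 and 22.9 with NDMA (n = 12 each), counted by medians of 6.5 and 15 reads, and 11 of 12 NDMA livers exceeded the saline median. Chek2 rose by 1.05 ± 0.30 on the log2 scale (adjusted p = 0.00757), with 0.89 and 1.36 within batches. At 2 days saline livers were at 5.80 ± 2.97 (SD, n = 7) and NDMA livers at 12.3 ± 3.87 (SD, n = 8), a log2 change of 1.01 ± 0.29 (adjusted p = 0.0109). Both calls held in every alternative that tested the gene, and the second also when any single library was left out. The alternatives include the same fit without a fold change threshold, which could not lose a call. At 10 weeks the log2 fold change was 0.93, not called (adjusted p = 0.216).

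The other signalling genes were not called by limma as fitted here in any of the 10 comparisons. Atm, the kinase activated by double-strand breaks, had log2 fold changes between -0.39 and 0.36. Atr, the kinase activated by single-stranded DNA, reached from -1.0 at 10 weeks to 0.64 at 5 days, both in Mgmt-/- livers, and its effector Chek1 from -0.19 to 0.46 in 4 comparisons. H2afx, the histone variant phosphorylated around breaks, ranged from -0.69 in WT livers at 5 days to 0.82 ± 0.30 in Mgmt-/- livers at 10 weeks (adjusted p = 0.0874), where all 8 NDMA livers exceeded the saline median. With equal library totals it was called there (1.02, adjusted p = 0.0264). Trp53bp1, which steers break ends to joining, was tested at 10 months only, at -0.41 in WT and 0.32 in Mgmt-/- livers. In the plot of called genes the values of single livers are shown.

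**Figure D3:**
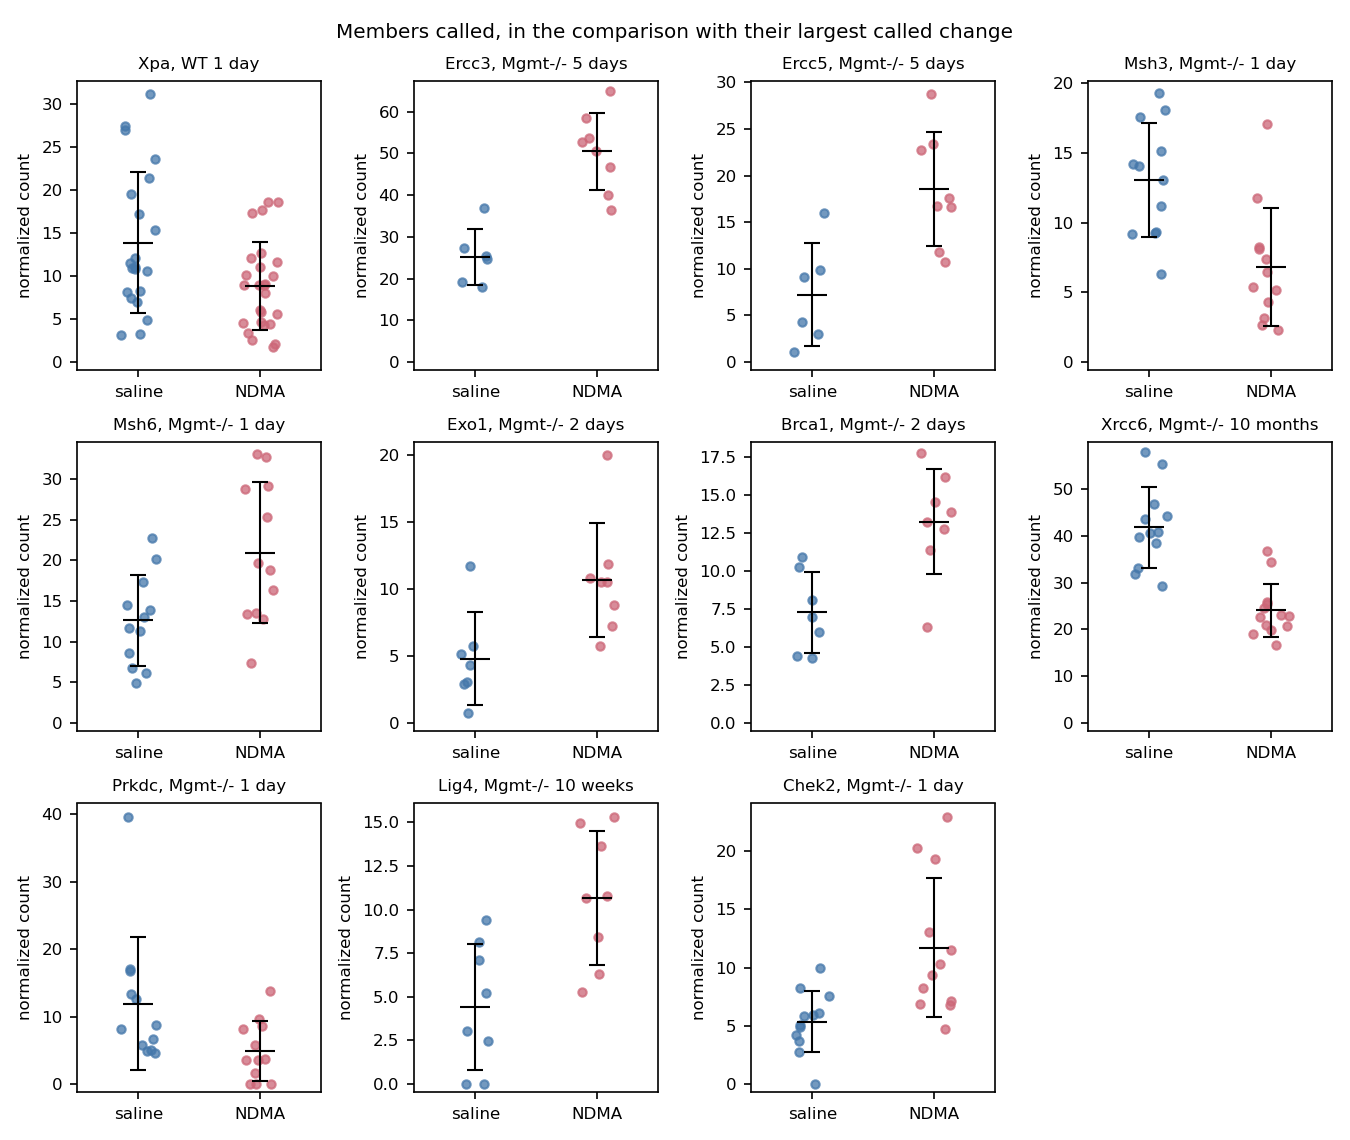
Normalized counts per liver (points; y axes start just below 0) of the 11 called genes, each in the comparison of its largest called change, with the mean and SD (bars). Saline is blue and NDMA red; Xpa, Msh3, Prkdc and Xrcc6 were lower and the other 7 higher with NDMA, and the points of the 2 groups overlap in every panel.

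The start regions of 3 genes that rose at 1 and 2 days in Mgmt-/- livers, Ercc5, Chek2 and Brca1, are shown because these genes were called in the same 2 comparisons. Each window runs from 250 bases before to 50 bases after the annotated start in RefSeq (GRCm38.p6) and is written 5′ to 3′ on the gene's strand. Capitals mark the letters CCAAT, the core bound by NF-Y, and TTCCCGC or TTCGCGC, cores of E2F sites, on either strand (on the other strand CCAAT reads ATTGG and TTCCCGC reads GCGGGAA). The marked runs do not overlap.
Ercc5, chr1:44147494-44147793, plus strand: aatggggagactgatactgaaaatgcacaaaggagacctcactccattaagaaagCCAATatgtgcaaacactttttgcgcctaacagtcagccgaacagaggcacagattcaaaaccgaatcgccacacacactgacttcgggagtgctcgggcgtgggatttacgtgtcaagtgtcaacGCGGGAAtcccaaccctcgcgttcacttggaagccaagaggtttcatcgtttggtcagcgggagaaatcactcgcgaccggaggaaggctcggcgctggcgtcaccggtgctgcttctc
Chek2, chr5:110839733-110840032, plus strand: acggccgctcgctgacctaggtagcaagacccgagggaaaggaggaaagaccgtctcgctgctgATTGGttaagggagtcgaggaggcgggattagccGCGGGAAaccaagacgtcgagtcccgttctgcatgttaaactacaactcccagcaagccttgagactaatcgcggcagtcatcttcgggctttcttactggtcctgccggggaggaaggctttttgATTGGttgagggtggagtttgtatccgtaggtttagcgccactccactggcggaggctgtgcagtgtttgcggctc
Brca1, chr11:101551906-101552205, minus strand: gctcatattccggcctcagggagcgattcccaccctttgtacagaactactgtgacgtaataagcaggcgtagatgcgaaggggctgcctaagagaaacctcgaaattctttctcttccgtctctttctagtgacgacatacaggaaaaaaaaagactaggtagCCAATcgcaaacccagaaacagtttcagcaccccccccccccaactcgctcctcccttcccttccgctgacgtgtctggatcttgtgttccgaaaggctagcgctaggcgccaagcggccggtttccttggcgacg
The Ercc5 window holds 1 TTCCCGC and 1 CCAAT, the Chek2 window 1 TTCCCGC and 2 CCAAT, and the Brca1 window 1 CCAAT and neither TTCCCGC nor TTCGCGC. Other forms of the E2F core were not searched for, so the Brca1 window is not shown to lack one. RefSeq windows were matched for 28 of the 38 genes. TTCCCGC or TTCGCGC was present in 14 of these 28 (50.0%), in 12.4% of the 8866 genes with a window that reached the mean of 5 in at least 1 comparison, and in 6.86% of all 27025 genes with a window. CCAAT was present in 16 of 28 (57.1%), beside 43.0% of the 8866 genes. TTTGAA, the core of the cell cycle homology region, was in 2 of 28 (7.14%), beside 14.9% of the 8866 genes, and is not capitalised. A p53 response element without mismatch, both its parts included, was found in 0 of the 28 windows and in 20 of the 27025. These matches describe letters, not bound sites.

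Other genes of the same pathways were listed apart from the 38 and are set beside the shares of all genes given above. Of 17 other nucleotide excision genes, 1 was called in WT mice at 2 days and 1 in Mgmt-/- mice at each of 10 months, 10 weeks and 1 day, all higher. The 3 largest were Lig1, the ligase that seals repair patches and replication fragments, at 0.98 ± 0.25 in Mgmt-/- livers at 10 months (adjusted p = 0.00846) and 0.94 ± 0.26 in WT livers at 2 days (adjusted p = 0.0272), Cdk7, a kinase of TFIIH, at 0.65 ± 0.21 at 10 weeks (adjusted p = 0.0453), and Gtf2h1, a TFIIH subunit, at 0.62 ± 0.20 at 1 day (adjusted p = 0.0194). Of 27 other recombination and Fanconi genes, 18 were tested in Mgmt-/- livers at 2 days, where 4 rose and 1 fell (27.8%, beside 19.9% of all genes). One more rose at 1 day and one at 10 weeks. The largest changes on that list were Rad51b, a recombinase paralog, at 2.20 ± 0.54 at 10 weeks (adjusted p = 0.00919), Xrcc3, another paralog, at -1.28 ± 0.38 at 2 days (adjusted p = 0.0129) and Brip1, the helicase partner of BRCA1, at 1.27 ± 0.30 at 2 days (adjusted p = 0.00222). Of 12 other signalling genes, Topbp1, an activator of ATR, rose by 1.19 ± 0.44 at 2 days (adjusted p = 0.0448) and Rnf8, a ubiquitin ligase at breaks, fell by 1.08 on the log2 scale at 1 day (adjusted p = 0.00454), both in Mgmt-/- livers. None of the 5 other end joining genes and none of the 4 other mismatch repair genes was called by limma in any of the 10 comparisons.

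Markers of dividing cells, of p53 activity and of other cell types were measured in the same comparisons. In Mgmt-/- livers 3 of 18 S phase and mitosis genes rose at 1 day (16.7%, beside 17.7% of all genes called) and 5 of 18 at 2 days (27.8%, beside 19.9%), with none lower, and none of the 18 was at 0 in any of these groups. Summed over the 18 genes, saline livers lay between 527.7 and 1541 normalized counts at 1 day (mean 954.4 ± 358.8, SD, n = 12) and NDMA livers between 779.9 and 1441 (1082 ± 222.6, n = 12), so the groups overlapped widely. At 2 days the sums were 1020 ± 213.3 (SD, n = 7, 807.8 to 1401) and 1470 ± 202.7 (SD, n = 8, 1230 to 1739), and Rrm2, a ribonucleotide reductase subunit, was the most abundant of the list with NDMA. Of the p53 targets 7 of 8 tested rose at 1 day and 7 of 7 at 2 days, and their sum went from 124.5 ± 34.9 to 1341 ± 200.6 and from 113.9 ± 23.9 to 1120 ± 108.3. Of the erythroid markers 6 of 6 tested fell at 1 day and 3 of 6 at 2 days, with Hbb-bs most abundant and no gene at 0, and sums of 40327 ± 14754 in saline and 23028 ± 7282 with NDMA at 1 day. Of the T cell markers 1 of 3 tested rose at 1 day, where the sum was 27.9 ± 10.6 in saline and 65.6 ± 34.8 with NDMA, and 4 of 4 rose at 2 days, from a summed 27.6 ± 5.08 (21.6 to 35.5) to 140.1 ± 55.4 (74.4 to 241.5). Of the 5 liver genes 3 fell at each of these times. Of the 6 macrophage genes 2 rose and 3 fell at 1 day and 3 rose at 2 days, and of the 4 endothelial genes 3 fell at 1 day while 1 rose and 1 fell at 2 days. Of the neutrophil precursor genes 2 of 4 tested fell at 1 day, and 1 rose and 2 fell at 2 days. Spp1, a cholangiocyte marker that macrophages also express, fell at 1 day, where 1 of 2 tested genes of its list was called, and 0 of 1 was called by limma at 2 days.

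In WT livers at 1 day, where Xpa was called, 0 of 18 S phase and mitosis genes was called by limma (2 with an unadjusted p under 0.05), and their sum was 824.5 ± 222.3 in saline and 835.1 ± 252.5 with NDMA. All 7 tested p53 targets rose there, with Cdkn1a, a cell cycle inhibitor, at 3.28 ± 0.34, and their sum went from 116.9 ± 171.6 to 519.7 ± 236.8. The saline SD exceeded its mean, so some saline livers lay far above the others. Of the T cell genes 2 of 3 rose there, of the macrophage genes 1 rose and 1 fell, and of the endothelial genes 1 of 4 fell, Stab2 at -0.97 ± 0.13. The cholangiocyte marker Spp1 (0.65 ± 0.13) and the neutrophil precursor marker Ltf (0.90 ± 0.27) also rose there. At 2 days in WT livers 6 of 7 p53 targets and 1 of 3 T cell genes rose, while Alb (-0.92 ± 0.15) and the macrophage genes Clec4f (-0.67 ± 0.20) and Vsig4 (-0.63 ± 0.19) fell. At 5 days in WT livers 5 of 6 p53 targets and 2 of 4 T cell genes rose, and no gene of the other marker lists was called by limma.

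At 5 days in Mgmt-/- livers, where Ercc5 and Ercc3 had their largest changes, 3 of 18 S phase and mitosis genes rose (16.7%, beside 17.8% of all genes), with sums of 791.4 ± 202.5 (SD, n = 6) in saline and 910.0 ± 206.9 (SD, n = 8) with NDMA. All 7 tested p53 targets rose, from a summed 112.6 ± 19.3 to 839.1 ± 63.7, and 4 of 4 tested T cell genes, from 26.2 ± 3.37 to 159.1 ± 35.5. Of the 6 macrophage genes 3 rose, while 6 of 7 tested erythroid genes, 3 of 3 neutrophil precursor genes, 2 of 4 endothelial genes, 1 of 5 liver genes and Spp1 fell. At 10 weeks, where Lig4 was called, 4 of 12 tested S phase and mitosis genes rose, from a summed 144.2 ± 51.8 to 276.9 ± 35.5, with 5 of 7 p53 targets, 2 of 6 macrophage genes, 2 of 3 neutrophil precursor genes and Spp1 (3.13 ± 0.41), and 1 of 5 liver genes fell. At 10 months, where Xrcc6 fell, 1 of 12 S phase and mitosis genes, 1 of 6 p53 targets, 2 of 6 macrophage genes, 1 of 3 neutrophil precursor genes, 1 of 5 liver genes and Spp1 (2.48 ± 0.33) rose. Of all genes 11.2% were called at 10 weeks and 7.74% at 10 months. The part of these cell types and of cell division in the changes of the repair genes was not tested.

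Whether the response differed between genotypes was tested as a genotype by treatment term (edgeR, on whole reads of both genotypes). At 1 day 0 of 24 members passed (3 with an unadjusted p under 0.05), against 0.0111% of 9013 genes. At 2 days 1 of 19 passed against 4.73%, at 5 days 0 of 17 (3 unadjusted) against 2.9%, at 10 weeks 0 of 14 (1 unadjusted) against 5.71%, and at 10 months 1 of 22 against 1.32%. Of the genes called in Mgmt-/- and not in WT mice, only Xrcc6 had a term that passed; the others are not shown to differ between the genotypes. Ddb1 had the other passing term and was called in neither genotype.

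Ddb1 (chr19:10605327-10629819, plus strand) passed at 2 days. Its WT livers were at 27.04, 87.6 and 131.5 normalized counts in saline and at 21.0, 68.8 and 103.4 with NDMA (n = 8 each), and the Mgmt-/- livers at 120, 161 and 202 in saline (n = 7) and at 196, 226 and 255 with NDMA (n = 8). The log2 changes within the genotypes were -0.29 and 0.51, and the term was 0.85 (adjusted p = 0.0286). Without sex and batch terms it was 0.71 (adjusted p = 0.192). No library batch held both genotypes at 2 days, and 3 WT saline libraries whose reads could not be recovered were left out of the term. Xrcc6 passed at 10 months, where WT livers were at 11.1, 17.2 and 27.4 normalized counts in saline (n = 10) and at 11.9, 20.1 and 34.2 with NDMA (n = 13). The WT log2 change of 0.14 and the Mgmt-/- change of -0.77 gave a term of -0.95 (adjusted p = 0.0376), or -0.96 without sex and batch terms (adjusted p = 0.0710).

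**Figure D4:**
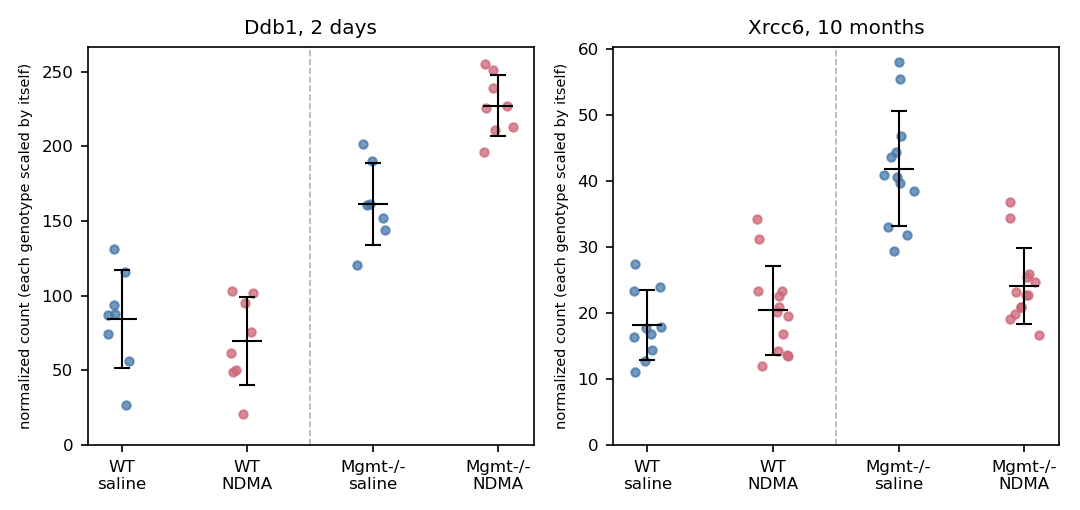
Normalized counts per liver (points) of Ddb1 at 2 days and Xrcc6 at 10 months by genotype and treatment, with the mean and SD (bars); each genotype was scaled by itself, so only differences within a genotype can be read. With NDMA the Ddb1 mean is higher in Mgmt-/- livers (227 against 162) and the Xrcc6 mean lower (24.1 against 41.8), while the WT groups overlap throughout.

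The sexes were compared through a sex by treatment term in each of the 10 comparisons, with the labelled sex, also for the 2 WT libraries at 1 day whose transcripts went against it. At 2 days, 5 days and 10 weeks in WT mice this term is also one of batch by treatment, and the 2 cannot be told apart. With limma 0 members passed in any, and at most 2 in a comparison had an unadjusted p under 0.05.

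Some of these transcripts differed with age in saline livers, whose first 3 times are those of pups and last 2 those of adults. Saline livers at 10 months were compared with those at 1 day within the 1 library batch that held both ages. The 4 WT livers at 1 day include D209074, the saline library named above for its Mgmt of 128.5 normalized counts. Whether its treatment label holds was not tested. Of 22 tested members 7 were called in WT mice (31.8%), against 49% of 9387 genes, 3 higher and 4 lower. In Mgmt-/- mice 6 of 22 were called (27.3%), against 50.7% of 10070 genes, 5 higher and 1 lower. The median log2 fold change was 0.45 in WT and 0.17 in Mgmt-/- members, beside 0.28 and 0.16 over all genes. With equal library totals the split was 4 higher and 2 lower in WT and 9 higher and 1 lower in Mgmt-/- mice.

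Rad23b was higher in adults of both genotypes. In WT mice it was at 22.2, 35.8, 32.8 and 27.1 normalized counts in the 4 livers at 1 day and at 126, 77.1 and 86.8 in the 3 at 10 months (log2 1.71 ± 0.29, adjusted p = 0.000225). In Mgmt-/- mice the 4 livers at 1 day lay between 36.7 and 48.3 and the 12 at 10 months between 88.7 and 141 (log2 1.37 ± 0.16, adjusted p = 1.22e-07). H2afx was lower in adults of both genotypes, with 24.96, 28.2, 39.1 and 27.1 at 1 day and 14.7, 14.9 and 5.82 at 10 months in WT mice (log2 -1.33 ± 0.38, adjusted p = 0.00915), and 40.9 to 54.3 at 1 day and 4.82 to 21.7 at 10 months in Mgmt-/- mice (log2 -1.77 ± 0.29, adjusted p = 1.64e-05). Without the WT library D209055 at 10 months the adjusted p of H2afx was 0.0537.

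Chek1 was at 11.6, 12.8, 8.45 and 5.07 in the WT livers at 1 day and at 0, 0 and 0.529 at 10 months (log2 -3.06 ± 0.71, adjusted p = 0.00228). Chek2 went from 8.32, 7.68, 5.28 and 10.1 to 0, 0 and 3.70 (log2 -2.44 ± 0.74, adjusted p = 0.0127), and its adjusted p was 0.0948 without D209049 and 0.0502 without D209054 of the 10 month group. Chek2 was tested in only 3 of the 7 fits with 1 library left out, and 2 of these lost the call. In Mgmt-/- mice neither reached a mean of 5, with Chek1 at 12.2 ± 3.03 (SD, n = 4) at 1 day and 0.746 ± 1.22 (SD, n = 12) at 10 months. Chek2 was at 5.48 ± 3.76 and 2.84 ± 1.52 in the same livers. Without the filter on low values Chek1 was called there (log2 -3.07, adjusted p = 3.94e-06). Beside these, 15 of 17 tested S phase and mitosis genes were lower at 10 months in WT and 14 of 15 in Mgmt-/- livers. Of all genes 1932 of 9387 in WT and 2213 of 10070 in Mgmt-/- livers were called lower. Xpc, Nbn and, lower, Ercc1 were also called in WT mice, at 1.49 ± 0.35, 1.27 ± 0.42 and -1.16 ± 0.45. Ercc6, Ercc4, Ddb1 and Ercc5 were called in Mgmt-/- mice, all higher, at 1.87 ± 0.49, 1.28 ± 0.45, 0.94 ± 0.19 and 0.64 ± 0.26. Leaving out 1 library at a time removed the Nbn call in 2 of 7 cases (D209049 and D209054, adjusted p up to 0.124) and the Ercc1 call in 5 of 7 (those 2, D209055, D209069 and D209073, up to 0.263). It removed the Ercc4 call in 3 of 16 (D209089, D209090 and D209093, up to 0.0698) and the Ercc5 call in 10 of 16 (D209010, D209013, D209014, D209033, D209035, D209038, D209039, D209089, D209093 and D209094, up to 0.210).

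**Figure D5:**
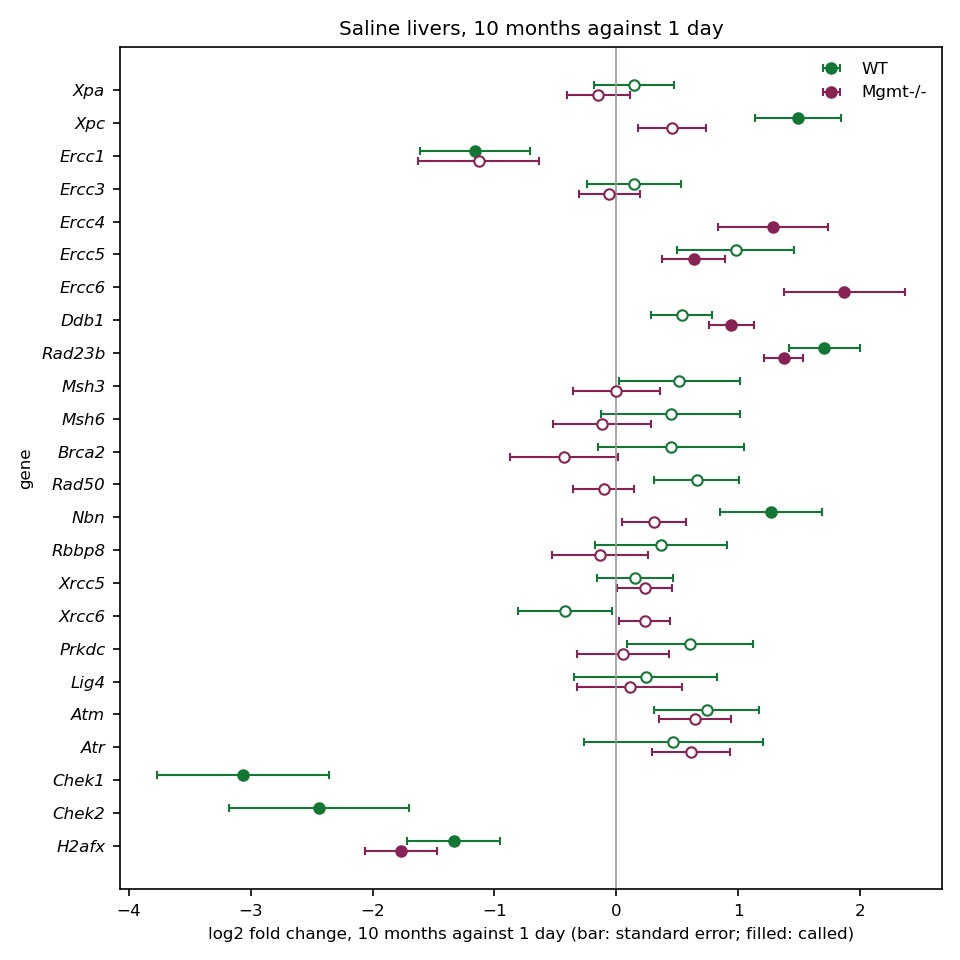
Log2 fold change of saline livers at 10 months against 1 day (points, with standard errors) for the members tested, in WT (green) and Mgmt-/- (purple) mice; filled points were called. Rad23b lies above 1 and H2afx below -1 in both genotypes, and Chek1 and Chek2, tested in WT mice only, lie lowest.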

How the data were processed

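The authors used STAR for alignment to GRCm38/mm10 and ESAT for gene counts, and scaled each genotype by itself with DESeq2. The deposited values are this signal, a gene's count over the size factor of its library. Tool versions and the annotation are not given in the sources used here. The authors' primers carried unique molecular identifiers. Conditions were taken from the labels, which matched the annotation lines of the files in 213 of 213 columns. A further labelled saline sample was not analysed here. Whole reads were recovered in 209 columns (all values whole multiples of 1 step, tolerance 0.1). The p-values measure the spread between mice, which were fitted as independent. According to the paper, treatment was assigned by litter at birth, and mice of separate litters were used where possible. Litter is not in the labels and had no term, so its effect cannot be told apart from that of treatment.

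Comparisons were fitted with limma 3.58.1 (trend, robust) on log2(value + 1) in R 4.3.3, with terms for treatment, for sex and for the library batch (aliased terms dropped), on genes with a mean of at least 5. Fold changes are differences of means on this scale, and in low genes they can lie below or above the ratio of the mean counts. P-values are two-sided and adjusted by Benjamini-Hochberg over all genes tested. The genotype by treatment term used edgeR 4.0.16 (quasi-likelihood, TMM). The 2 libraries with kidney transcripts were left out of the main fits. In WT mice at 2 days, 5 days and 10 weeks every batch was of 1 sex, and the 2 cannot be told apart.

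Alternatives were pseudocounts of 0.5 and 5, a mean of at least 20, no filter, treatment alone, equal totals, no fold change threshold, edgeR, DESeq2 1.42.0, a single batch at 1 day, and leaving out libraries; leaving out the columns whose reads were not recovered was chosen after seeing the data. Tests were checked on simulated data. Named genes are the members called, those with a genotype by treatment call and up to 3 called genes of each further list; the further members given with values (Nbn, Ddb1, Rad23b and Pms2 among them) and the promoters were picked with their values in view. The members and lists were chosen with earlier results of these data known. Positions are from GENCODE vM21, counted from 1. Tables were made with pandas 2.3.3 and numpy 2.4.6, figures with matplotlib 3.10.9, under Python 3.11.15.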

Additional observations from a re-analysis of the deposited data

Results flagged for a closer look

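Among 18 groups of 4 to 10 livers examined for the called genes, 1 held a liver far from the others by Dixon's test, and chance alone gives about 1 in 20. It was the NDMA library D389071 of Mgmt-/- mice at 2 days, with 20.0 normalized counts of Exo1 while the next liver held 11.9. The genotype by treatment term (edgeR) passed for Ddb1 at 2 days (log2 term 0.85) and for Xrcc6 at 10 months (log2 term -0.95). Without sex and batch terms neither passed (edgeR, adjusted p = 0.192 and 0.0710). At 2 days no library batch held both genotypes.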

How the results depend on the processing

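No call changed direction in any alternative. Over the called members, 204 values under other settings kept the call and 25 lost it, and with 1 library left out 229 kept it and 44 lost it. The 204 include the setting without a fold change threshold. That setting repeats the main fit and could not lose a call, so it is no check of one. Single libraries were not left out for 8 of the 17 calls (WT and Mgmt-/- mice at 1 day, Mgmt-/- mice at 10 months) nor for the genotype by treatment terms. Counts of called members that moved by over 1.5 times were as follows. In WT mice at 1 day (1 called), a pseudocount of 5, a mean of at least 20 and treatment alone gave 0, and no fold change threshold, edgeR, DESeq2 and batch 191212Eng alone gave 2, Ercc5 being added. In WT mice at 2 days (0 called), a pseudocount of 5 and edgeR gave 1 and leaving out the library under 300000 reads 2. In WT mice at 5 days (0 called), edgeR, DESeq2 and leaving out that library each gave 1, Xrcc6. In Mgmt-/- mice at 1 day (6 called) a mean of at least 20 gave 1 and equal library totals 10, and at 2 days (6 called) a mean of at least 20 gave 1. At 10 weeks (1 called) a pseudocount of 0.5, a mean of at least 20, no filter and edgeR gave 0, DESeq2 2 and equal totals 3. For age a mean of at least 20 gave 2 in WT (7 called) and equal totals 10 in Mgmt-/- mice (6 called). The genotype by treatment count of 1 became 0 at 2 days and 10 months with genotype and treatment alone, and at 10 months with a mean of at least 20, which left Xrcc6 untested. With 1 library left out the counts ran from 0 to 2 in WT at 2 days, 0 to 1 at 5 days, 0 to 0 at 10 weeks, 4 to 7 in Mgmt-/- at 2 days, 2 to 3 at 5 days, 0 to 2 at 10 weeks, and for age 4 to 7 in WT and 4 to 8 in Mgmt-/- mice. A mean of at least 20 leaves fewer members tested; for the other settings the cause was not tested.

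Equal totals moved the median of all genes by 0.19, 0.16, 0.15 and 0.20 (log2) in Mgmt-/- mice at 1, 2 and 5 days and 10 weeks, and by 0.25 and 0.21 for age in WT and Mgmt-/- mice. Of all calls the share that was higher went there from 51.2% to 76.2%, 62.2% to 80.3%, 62.4% to 77.9% and 65.2% to 86.8%, and for age from 58% to 68.8% and 56.7% to 68.1%. The members' calls split into 8 higher and 2 lower at 1 day against 4 and 2, 6 and 0 at 2 days against 5 and 1, and 3 and 0 at 10 weeks against 1 and 0. In WT mice at 1 day equal totals gave 1 higher, Ercc5, in place of 1 lower, Xpa, and the share of all calls went from 54.5% to 65.3%. It went from 53.4% to 68.0% at 2 days, and at 5 days from 61.5% to 42.4% with edgeR and 47.3% with DESeq2. At this depth 6 members were not tested.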
